A study of Mus musculus and Homo sapiens with 15 samples.

Results

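The comparison concerned 6 of the 15 libraries of the series: 3 prepared from 1 ng and 3 prepared from 100 pg of total RNA of HEK cells that had received the editing enzyme but no antibody (1ng_Enzyme_only and 100pg_Enzyme_only). The labels name the line HEK293XT, an immortalised line of human embryonic kidney origin. INSCRIBE edits RNA in fixed cells with Apo1-Nb, a purified fusion of the C-to-U deaminase APOBEC1 to a nanobody against rabbit IgG. In an experiment, a rabbit antibody against an RNA-binding protein recruits the fusion to that protein. Here both inputs lacked the antibody, so their edits form the background of untargeted enzyme, and the libraries differed by label only in the amount of RNA used. Cells on slides were incubated overnight at 37 °C, and their RNA was then extracted. The study's methods give a low-input kit with total RNA as its starting material for both inputs, whereas the labels of these libraries name ribosomal RNA depletion and both that kit and a stranded kit. By the study's methods, the 3 replicates of a condition were made on 3 separate slides, and its figure legends call them technical replicates. Nothing in the labels says that they came from separate cultures, so every p-value measures a spread that may be technical. No HEK library without the enzyme was analysed here, so the level of C-to-T reads that arises without the enzyme was not measured.

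APOBEC1 is the deaminase that edits apolipoprotein B mRNA in the intestine, where it prefers a C that follows an A or a U and lies in AU-rich sequence. Many of its other known targets lie in 3′ UTRs. An enzyme that no antibody recruits can meet any exposed transcript, and abundant and long mRNAs offer it the most cytosines. In general, the fewer RNA molecules enter a library, the more PCR copies are read of each, and a transcript of which no molecule is converted to cDNA gives no read.

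A site is a cytosine with at least 1 read that reads T (an edited read). After the study's filter, which keeps sites with a confidence score above 0.5 and an edit fraction (edited over covering reads) below 0.8, the 1 ng libraries held 39826, 53448 and 50502 sites and the 100 pg libraries 30685, 30571 and 31898. The total of edited reads ran the other way, from 78519 to 108208 at 1 ng and from 110460 to 115196 at 100 pg, and the reads covering the sites summed to similar totals, 1.84e+06 ± 3.08e+05 and 1.95e+06 ± 51238 (SD, n = 3). Of 9 genes that mark the HEK293 line, 8 carried an edited read in at least 1 library, and the edited reads summed over the 9 were 20, 38 and 18 at 1 ng and 44, 70 and 21 at 100 pg. Only the vimentin gene VIM had a cluster in all 6 libraries. All 8 genes of kidney segments (among them UMOD, NPHS1 and AQP2) were at 0 edited reads in every library. Of 6 blood and fibroblast genes only CD74 had any, with sums of 0, 0 and 1 at 1 ng and 2, 0 and 0 at 100 pg.

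The following windows show 10 bases on either side of the edited cytosine, which is in capitals, read from the hg38 genome on the strand of the site. The first 4 are the sites with the most edited reads among those that passed the filter in all 6 libraries, the next 3 passed in all 3 libraries of 1 ng and in none of 100 pg, the next 3 did the reverse, and the last 3 are tall sites of a single 100 pg library, chosen after their values were seen.
Mitochondrial site opposite MT-RNR2, chrM:2005-2025, minus strand: ggacaaccagCtatcaccagg
MT-CYB coding exon, chrM:15249-15269, plus strand: actcagtagaCagtcccaccc
MT-ND5 coding exon, chrM:12690-12710, plus strand: caaatatctaCtcatcttcct
PDIA6 3′ UTR, chr2:10784041-10784061, minus strand: ttgttgtagcCggtgaattga
ATP6V1G1 3′ UTR, chr9:114597904-114597924, plus strand: tttgtacagaCttagaaatta
KPNA1 3′ UTR, chr3:122426095-122426115, minus strand: aaactaaggaCgaaaaaaccc
AC009133.1 non-coding exon, chr16:29810797-29810817, minus strand: cagggcctgaCcccaaccccc
COPS8 3′ UTR, chr2:237097776-237097796, plus strand: atcctgtataCtgacaaacgt
YWHAQ 3′ UTR, chr2:9585019-9585039, minus strand: ctcccaaacaCttatgtagag
B2M 3′ UTR, chr15:44717759-44717779, plus strand: agtgctgtctCcatgtttgat
TMA7 3′ UTR, chr3:48444066-48444086, plus strand: tagttgttttCactaagtcgt
SNRPG coding exon, chr2:70288081-70288101, minus strand: gactagtggaCaacagaacaa
H3-3B 3′ UTR, chr17:75778436-75778456, minus strand: cgaaaagtgaCtgttcacaga

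The tallest site of the data, on the minus strand of the mitochondrial genome opposite the 16S ribosomal RNA gene MT-RNR2, had 5477, 6707 and 6187 edited reads at 1 ng and 5953, 5195 and 6077 at 100 pg. Its edit fraction was 20.3%, 19.9% and 20.2% at 1 ng and 20%, 19.6% and 21.1% at 100 pg, so that the inputs overlapped. This site alone held 6.48% ± 0.43 of all edited reads at 1 ng and 5.12% ± 0.40 at 100 pg (SD, n = 3). The MT-CYB site was edited in 15.9%, 16.5% and 16.6% of reads at 1 ng and in 16.3%, 18% and 17.3% at 100 pg. The PDIA6 site, in the 3′ UTR of a protein disulfide isomerase of the endoplasmic reticulum, was at 68.8%, 67.2% and 66.0% at 1 ng and at 57.9%, 64.5% and 68.1% at 100 pg. These 3 sites were thus edited to similar fractions at both inputs.

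The sites that passed at only 1 input carried far fewer edited reads. At the ATP6V1G1 site (a subunit of the vacuolar proton pump), 8 of 576, 26 of 765 and 11 of 620 covering reads were edited at 1 ng. The KPNA1 site (importin alpha) had 4 of 10, 7 of 27 and 18 of 39. At 100 pg the YWHAQ site (a 14-3-3 protein) had 10 of 653, 9 of 502 and 8 of 485, and the COPS8 site (a subunit of the COP9 signalosome) 9 of 226, 13 of 253 and 6 of 154. The B2M site, in the 3′ UTR of beta-2-microglobulin, had 9 of 644, 18 of 665 and 10 of 722. Away from genes of their strand, a site at chr10:68632713 had 21 of 27, 31 of 44 and 27 of 34 at 1 ng, and one at chr2:97274353 had 8 of 17, 18 of 27 and 8 of 14 at 100 pg. The deposited files list a position only where a read was edited. These sites may also have been listed at the other input and removed there by the filter, and their cover there is not given here.

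The inputs differed in how many edited reads a site had. Filtered sites carried 1.98 ± 0.037 edited reads on average at 1 ng and 3.61 ± 0.15 at 100 pg (SD, n = 3), which is 1.82 times as many. The groups did not overlap in this measure, and the exact two-sided permutation test of 3 against 3 libraries gave p = 0.1, the smallest it allows; the same p holds for every measure below whose groups are said not to overlap. Sites on a single edited read numbered 25032 to 32932 at 1 ng and 17850 to 18613 at 100 pg. Sites on 2 edited reads numbered 8966, 12011 and 10984 at 1 ng but 2695, 2757 and 2966 at 100 pg. From 5 to 9 edited reads the order was turned, with 900 to 1378 sites at 1 ng and 4383 to 5073 at 100 pg. Sites on 10 or more edited reads numbered 197, 313 and 289 at 1 ng and 2916, 2457 and 2019 at 100 pg, and held 19.0% to 19.8% of the edited reads at 1 ng and 36.9% to 46.5% at 100 pg. Counts at 1 ng declined steeply, from 3476 sites on 3 reads to 94 on 7 reads in replicate 1, whereas at 100 pg they levelled off, from 1190 to 925 in replicate 1. Without the filter the sites on 10 or more reads numbered 515 to 835 at 1 ng and 3699 to 5366 at 100 pg.

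**Figure D1:**
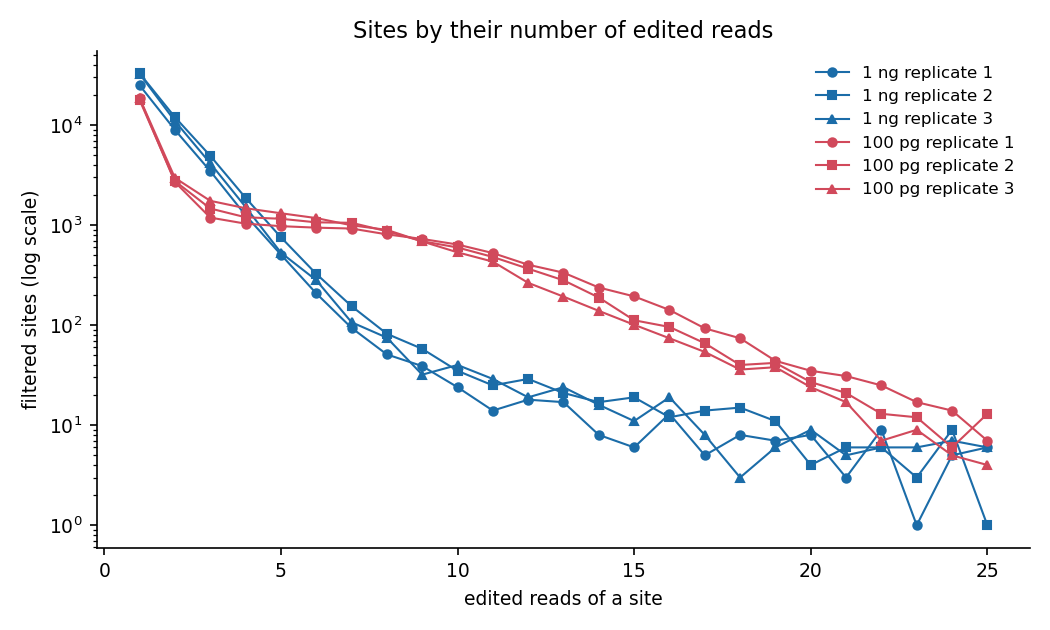
Number of filtered sites (log scale) by the edited reads of a site, one line for each of the 6 libraries, up to 25 edited reads. The 1 ng lines decline steeply, while the 100 pg lines level off between 3 and 7 reads and lie above the 1 ng lines from 5 to 21 reads, with 2019 to 2916 sites of 10 or more reads against 197 to 313. From 22 reads on, where counts are small, some lines cross.

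The tall sites at 100 pg were mostly private to 1 library. Of the sites on 10 or more edited reads, 80.8%, 79.6% and 76.6% at 100 pg passed the filter in no other of the 6 libraries, against 2.54%, 4.15% and 3.46% at 1 ng, where such a site was nearly always found again. Before the filter these shares were 57.1% to 63.5% at 100 pg and 0.388% to 1.68% at 1 ng. The share of all filtered sites that passed in no other library was about the same, 91.4% ± 0.83 at 1 ng and 92.2% ± 0.14 at 100 pg, and the groups overlapped. Before the filter 75.2% ± 1.8 and 76.2% ± 0.15 of sites were listed in no other library. In the TMA7 window above (a small ribosome-associated protein), 39 of 636 reads were edited in 1 library of 100 pg and the site passed the filter in none of the others. The SNRPG site (a core protein of spliceosomal snRNPs) had 35 of 1321 in another library, and the H3-3B site (histone variant H3.3) had 37 of 3372 in the remaining one. The tallest private sites with a gene in the 1 ng libraries were in CBX6 (12 of 438 reads), HSP90AA1 (38 of 3160) and PHB2 (11 of 482).

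High edit fractions showed the same contrast. Among sites covered by at least 20 reads, 193, 307 and 251 had an edit fraction of 20% or more at 1 ng, and 1883, 1672 and 1497 at 100 pg. This was 1.03% ± 0.088 of such sites at 1 ng and 9.53% ± 1.1 at 100 pg (SD, n = 3), a ratio of 9.28. Of these highly edited sites, 22.7% to 26.4% at 1 ng and 80.2% to 82.4% at 100 pg passed the filter in no other library. With every listed site these shares were 22.7% to 26.4% and 79.8% to 81.9%. The median edit fraction over all filtered sites did not separate the inputs (6.60% ± 0.33 and 6.98% ± 0.27).

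The sequence around a site depended on how many reads it had. Over all cytosines of the canonical mRNAs of protein-coding genes with a cluster, 46.4% follow an A or a U. Single-read sites followed an A or a U in 67.3%, 66.6% and 68% of cases at 1 ng but in only 50.4%, 50.8% and 51.0% at 100 pg. Sites on 10 or more reads showed the reverse order, with 57.4%, 58.8% and 61.9% at 1 ng and 80.7%, 79.1% and 81.4% at 100 pg. In between, sites on 3 to 4 reads were at 79.4% to 80.1% at 1 ng and 69.3% to 73.6% at 100 pg, and sites on 5 to 9 reads overlapped (76.7% to 79.4% and 76.1% to 78.0%). ACU was the commonest triplet among the tall sites of 100 pg, at 20% to 21.1%, and UCC was at 13.7% to 17.3% among those of 1 ng. The median cover of the single-read sites was 17 to 18 reads at both inputs.

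The strand of the sites moved in parallel. The low-input kit that the methods name keeps no strand, and from unstranded reads a site can only be placed on the strand where its change reads as C-to-U, which for an edit of an mRNA is the coding strand of its gene. Since the labels also name a stranded kit, it is not settled whether the strands were read or inferred, and the shares below are given as listed. Sites within protein-coding genes of 1 strand lay on the opposite strand in 26.2% ± 0.62 of cases at 1 ng and 39.2% ± 0.93 at 100 pg (SD, n = 3). Single-read sites did so in 29.5% to 31.2% of cases at 1 ng, and at 100 pg in 50.8% to 51.7%. Sites on 2 reads had shares of 18% to 19.4% and 39.8% to 43.9%. The order turned at 5 to 9 reads, where 1 ng libraries had 22.4% to 29.1% and 100 pg libraries 13.9% to 15.1%. Of sites on 10 or more reads, 56.6% to 60.7% at 1 ng and only 12.6% to 14.6% at 100 pg were on the opposite strand. Single-read sites of 100 pg were thus spread nearly evenly over both strands, and their share after A or U on the coding strand (49.3% to 50.7%) was close to that on the opposite strand (50.8% to 51.5%). At 1 ng these were 72.7% to 74.4% and 53.2% to 54.5%. In number, single-read sites on the opposite strand were alike at both inputs, 7979 ± 1101 and 7883 ± 216, whereas those on the coding strand numbered 18102 ± 2752 at 1 ng and 7518 ± 208 at 100 pg (SD, n = 3).

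**Figure D2:**
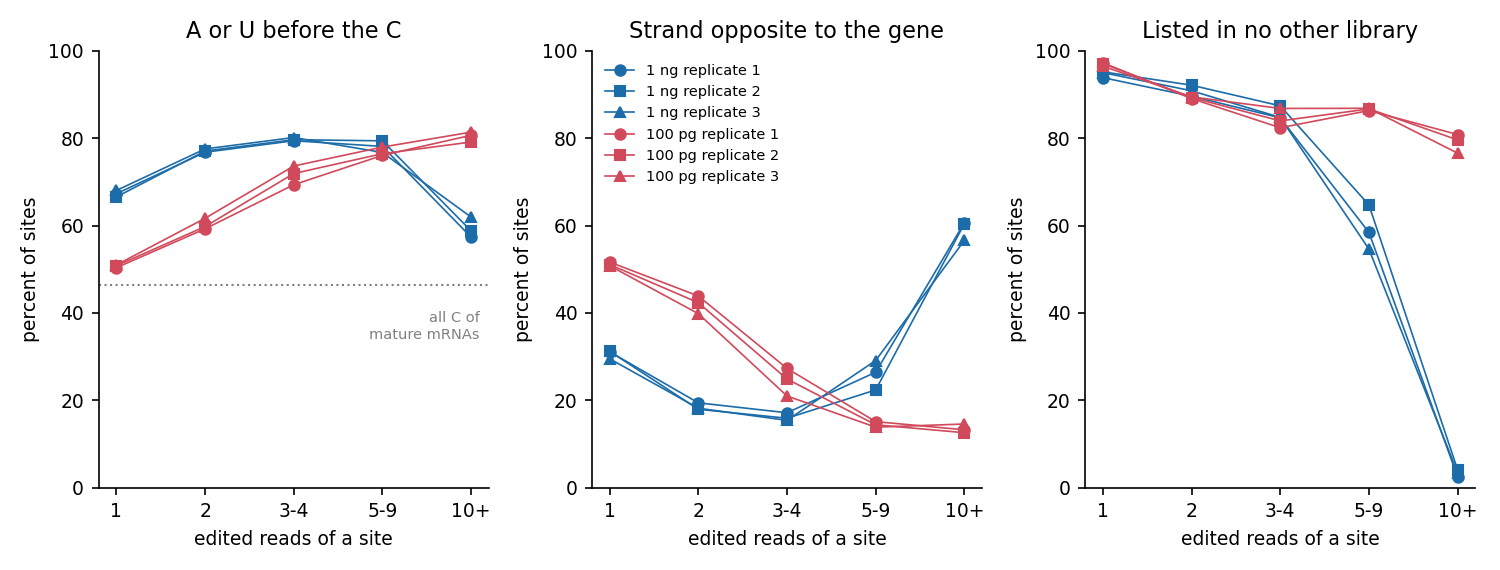
Percent of filtered sites, by the edited reads of a site (1, 2, 3 to 4, 5 to 9, 10 or more), that follow an A or U, lie on the strand opposite a protein-coding gene, or passed the filter in no other library (titled as listed in no other library), with a line for each of the 6 libraries. For single-read sites the 100 pg libraries sit near 51% after A or U and near 51% on the opposite strand, and for sites on 10 or more reads they sit at 79.1% to 81.4% and 12.6% to 14.6%.

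Single filtered sites seldom recurred. Of a library's filtered sites, 4.35% ± 0.55 also passed the filter in another library of 1 ng and 2.79% ± 0.044 in another of 100 pg (SD, n = 3). With every listed site these shares were 12.5% ± 1.7 and 8.42% ± 0.13. Across the 6 libraries, 217458 sites passed the filter in 1 library, 331 in all 6, 228 in all 3 of 1 ng and none of 100 pg, and 20 in all 3 of 100 pg and none of 1 ng. The 331 sites of all 6 libraries held 18.1% ± 0.23 of the edited reads at 1 ng and 15.6% ± 0.57 at 100 pg. Of them, 201 (60.7%) lay outside genes of their strand, 46 in introns, 36 in coding exons and 23 in 3′ UTRs. Among the 219 of them within protein-coding genes of 1 strand, 156 (71.2%) were on the opposite strand, against 30.4% of the sites that passed in 1 library. Their edit fraction had a median of 13.7% at 1 ng and 16.6% at 100 pg. Compared site by site, the median difference of 1 ng minus 100 pg was only −0.62 percentage points, with 145 sites higher at 1 ng and 186 at 100 pg. The inputs did not overlap at 13 sites that were higher at 1 ng and 25 that were higher at 100 pg. Further sites of this kind were in the 5′ UTR of the chaperonin gene HSPE1 (149, 213 and 273 edited reads at 1 ng and 170, 254 and 289 at 100 pg) and in an intron of ENSG00000258232, opposite the tubulin gene TUBA1C (174, 220 and 218, and 260, 267 and 197). Why these sites recur was not tested.

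In transcripts, edits lay in different regions at each input. Sites in 3′ UTRs made up 27.3%, 26.9% and 28.3% of sites at 1 ng and 18.8%, 19.5% and 19.9% at 100 pg. Sites outside genes of their strand made up 25.6% ± 0.39 and 37.4% ± 0.71 (SD, n = 3). Coding exons held 19.5% ± 1.0 and 18.3% ± 0.23 of sites, and introns 20.9% ± 1.3 and 19.0% ± 0.22. Counted in edited reads the picture differed, since tall sites weigh more: 3′ UTRs held 24.9% ± 0.61 at 1 ng and 27.3% ± 0.41 at 100 pg, coding exons 18.9% ± 0.78 and 23.5% ± 0.51, and introns 17.8% ± 1.0 and 13.8% ± 0.34. Among sites on 10 or more reads, 39.2% to 40.6% were in 3′ UTRs at 100 pg and 12.7% to 14.5% at 1 ng. The mitochondrial genome contributed 19 to 21 sites at 1 ng and 21 to 25 at 100 pg, with 12.1% ± 0.67 and 10.2% ± 0.68 of the edited reads.

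Clusters are stretches that the study's caller found enriched for edits, labelled with the gene they lie in. The 1 ng libraries had 23889, 31947 and 30437 clusters in 7124, 8214 and 7995 genes. The 100 pg libraries had 15474, 15725 and 16731 clusters in 6177, 6163 and 6420 genes. With all libraries thinned to the smallest total of edited reads, the genes with an edited site were 7139, 7668 and 7586 at 1 ng and 5401, 5457 and 5707 at 100 pg. The ratio of 1 ng to 100 pg was 1.24 as deposited and 1.35 after thinning, so that the inputs stayed apart at equal numbers of edited reads. Edited reads of a site may be PCR copies, so equal numbers of reads need not be equal numbers of molecules. Another library of the same input contained 76.4% ± 4.0 of a library's genes at 1 ng and 61.9% ± 0.61 at 100 pg (SD, n = 3).

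Detection depended on the number of clusters of a gene. A gene with 1 cluster in a 1 ng library had a cluster in another 1 ng library in 57.2% of cases and in a 100 pg library in 42.3%. With 10 or more clusters, these shares were 99.8% and 95.3%. A gene with 1 cluster in a 100 pg library was found in another 100 pg library in 49.7% of cases and in a 1 ng library in 63.4%. Genes seen at 100 pg were therefore found more often at 1 ng than in a replicate of their own input, in each of the 4 classes below 10 clusters.

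**Figure D3:**
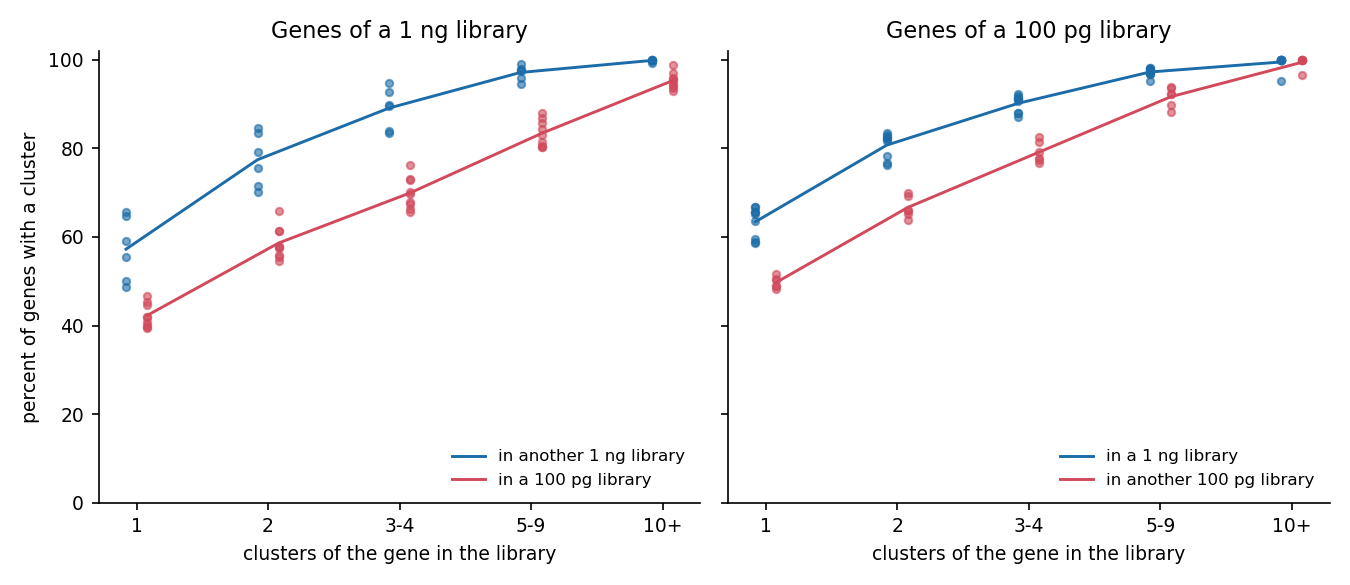
Percent of the genes of a 1 ng library (one panel) or of a 100 pg library (the other panel) that had a cluster in another library, by the number of clusters of the gene in the first library, with a point for each pair of libraries and lines through the means. For genes on 1 cluster the means are 57.2% and 42.3% for genes of a 1 ng library and 63.4% and 49.7% for genes of a 100 pg library.

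Over all libraries 12296 genes had a cluster, of which 2188 had one in all 6, 2318 only at 1 ng and 1668 only at 100 pg. Of the 5066 genes with a cluster in all 3 libraries of 1 ng, 314 (6.2%) had none at 100 pg, 894 had one in 1 library, 1670 in 2 and 2188 in all 3. Of the 2834 genes with a cluster in all 3 libraries of 100 pg, 46 (1.62%) had none at 1 ng, 175 had one in 1 library, 425 in 2 and 2188 in all 3. These counts depended on the clusters admitted: with a cluster score of at least 0.99 they were 209 of 1855 genes (11.3%) and 96 of 1168 (8.22%).

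The 4 genes of the first kind with the most edited reads were ADPGK, HMGN4, LRRC40 and ZBTB43. ADPGK, an ADP-dependent glucokinase, had 7, 27 and 8 edited reads on 4, 10 and 5 sites at 1 ng and 0 in each 100 pg library. HMGN4, a nucleosome-binding protein, had 12, 8 and 15, LRRC40 13, 5 and 17, and the zinc finger gene ZBTB43 18, 13 and 4. Their edits were thus spread over several sites with few reads each. Before the filter, at listed sites inside a cluster of any of the 6 libraries, ADPGK and ZBTB43 were still at 0 in all 3 libraries of 100 pg. That count allows up to 3 edited reads in each for counting error only, since PCR copies are not independent molecules. HMGN4 had 5, 0 and 0 and LRRC40 0, 1 and 0. Listed sites outside every cluster were not assigned to a gene, so a 0 does not show that no edit was listed.

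The 4 of the second kind were HSP90AB1, LAMTOR5, DBI and NDUFAB1. HSP90AB1, a cytosolic chaperone, had 60, 75 and 8 edited reads at 100 pg and 0 in each 1 ng library. LAMTOR5, a subunit of the Ragulator complex, had 13, 49 and 53, DBI (acyl-CoA binding protein) 74, 5 and 8, and NDUFAB1 (mitochondrial acyl carrier protein) 20, 10 and 52. None of the 4 lacked edits at 1 ng before the filter. Counting every listed site, HSP90AB1 had 19, 25 and 35 at 1 ng against 75, 84 and 48 at 100 pg, LAMTOR5 4, 10 and 12 against 13, 53 and 53, DBI 6, 11 and 15 against 75, 9 and 16, and NDUFAB1 13, 24 and 15 against 24, 10 and 53. The score keeps a site on 1 edited read only up to a cover of 69 reads and a site on 2 edited reads up to 168, so well covered sites with few edited reads were removed.

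Within genes the filter acted unequally on the inputs. Over all sites, listed edited reads averaged 244942 per library at 1 ng and 280207 at 100 pg. Of these 95105 and 112092 passed, which are similar shares. Of the listed edited reads at sites assigned to 1 gene through a cluster, 85.0% passed at 1 ng and 93.2% at 100 pg. For nuclear genes of oxidative phosphorylation 37.4% passed at 1 ng and 79.3% at 100 pg, for 14-3-3 proteins 37% and 89.3%, and for glycolysis 43.8% and 85.2%. For nuclear long non-coding RNAs 92.0% and 97.3% passed. Values with every listed site are therefore given beside each gene group. For genes and gene groups, these values and those before the filter count only listed sites inside a cluster, of any of the 6 libraries, that named 1 gene. Listed sites elsewhere are missing from them.

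Within a gene, the edits of 100 pg were piled on fewer sites. Genes carried 3.49 ± 0.26 sites at 1 ng and 2.28 ± 0.056 at 100 pg, and 33.8% ± 2.4 and 48.3% ± 0.95 of them rested on 1 site (SD, n = 3). Among genes with at least 10 edited reads, numbering 1164, 1706 and 1575 at 1 ng and 1990, 2016 and 1984 at 100 pg, the median number of sites was 8 in each 1 ng library and 3, 3 and 4 at 100 pg. The tallest site held a median of 25%, 25% and 23.1% of the gene's edited reads at 1 ng and 55.4%, 52.6% and 50% at 100 pg. At least 50% of the reads lay on 1 site in 8.71% ± 0.61 of these genes at 1 ng and in 57.4% ± 3.9 at 100 pg.

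Edited reads were summed per gene over the filtered sites and the 1669 genes with enough reads were tested. None passed an adjusted p of 0.05 in edgeR's quasi-likelihood test with Benjamini-Hochberg adjustment (0 genes, 0%), with 171 (10.2%) at an unadjusted p under 0.05, of which 62 (3.71%) were higher at 1 ng and 109 (6.53%) at 100 pg. DESeq2 called 85 of the same genes (5.09%), 19 of them higher at 1 ng (1.14%) and 66 at 100 pg (3.95%). Other settings called 34 of 12296 genes (0.277%) without the filter on low counts and 7 of 88 (7.95%) from the number of sites per gene. Taken as a share of the library's gene-assigned edited reads, 152 genes (9.11%) did not overlap and were higher at 1 ng, and 164 (9.83%) were higher at 100 pg. From every listed site these were 129 (7.15%) and 131 (7.26%) of 1804. The spread between replicates differed: the common dispersion gave a coefficient of variation of 43.8% among the 1 ng libraries and of 95.0% among the 100 pg libraries. Over all 6 libraries it was 73.4%.

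The genes with the smallest p, chosen after their values were seen, differed in how their edits were laid out. Of the 5 higher at 1 ng, all except KPNA1 had 8 or more sites in each 1 ng library and at most 6 edited reads on any of them. PUM2, a Pumilio protein that binds 3′ UTRs, had 54, 32 and 36 edited reads on 27, 22 and 25 sites at 1 ng and 12, 2 and 1 on 5, 2 and 1 at 100 pg (log2 fold change 3.43 ± 0.87 SE, adjusted p = 0.0875 in edgeR's quasi-likelihood test with Benjamini-Hochberg adjustment). SLC36A4, an amino acid transporter, had 19, 11 and 27 against 1, 0 and 1, and KMT2E, a chromatin protein, 22, 27 and 29 against 2, 3 and 4. KPNA1 had 11, 14 and 31 against 0, 1 and 0, of which 4, 7 and 18 at 1 ng were on its tallest site. NUDT21, a subunit of the cleavage factor that helps choose polyadenylation sites, had 23, 28 and 19 against 1, 0 and 4. No library of 100 pg reached the lowest of 1 ng in any of these 5 genes, also with every listed site except in the case of KPNA1, where 1 library of 100 pg had 12.

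Those higher at 100 pg had taller sites there than at 1 ng, and also more of them. ATP5F1A, the alpha subunit of the ATP synthase, had 7, 5 and 6 edited reads at 1 ng and 36, 88 and 96 at 100 pg (log2 fold change −3.20 ± 0.65 SE, adjusted p = 0.0629 in edgeR's quasi-likelihood test with Benjamini-Hochberg adjustment). CALM2, a calmodulin gene, had 4, 12 and 19 against 111, 96 and 78, and GLO1, glyoxalase 1, had 13, 15 and 9 against 108, 41 and 161. UBE2C, the ubiquitin-conjugating enzyme of mitotic exit, had 1, 0 and 0 against 36, 66 and 11. On the tallest site of GLO1 were 6, 7 and 4 edited reads of 5 sites in each 1 ng library, and 18, 13 and 21 of 11, 6 and 19 sites at 100 pg. The tallest site of CALM2, with 1 or 2 sites at 1 ng and 9, 8 and 6 at 100 pg, had 4, 12 and 10 against 19, 22 and 18. Before the filter the values were closer, and ATP5F1A had 18, 32 and 42 against 40, 96 and 100, GLO1 had 41, 81 and 57 against 126, 54 and 170, and UBE2C had 5, 8 and 7 against 46, 68 and 16. As shares of the library's gene-assigned edited reads, the inputs then overlapped for ATP5F1A, GLO1 and CALM2 but not for UBE2C. As counts they overlapped for ATP5F1A and GLO1 only, and those of CALM2 stayed higher at 100 pg.

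**Figure D4:**
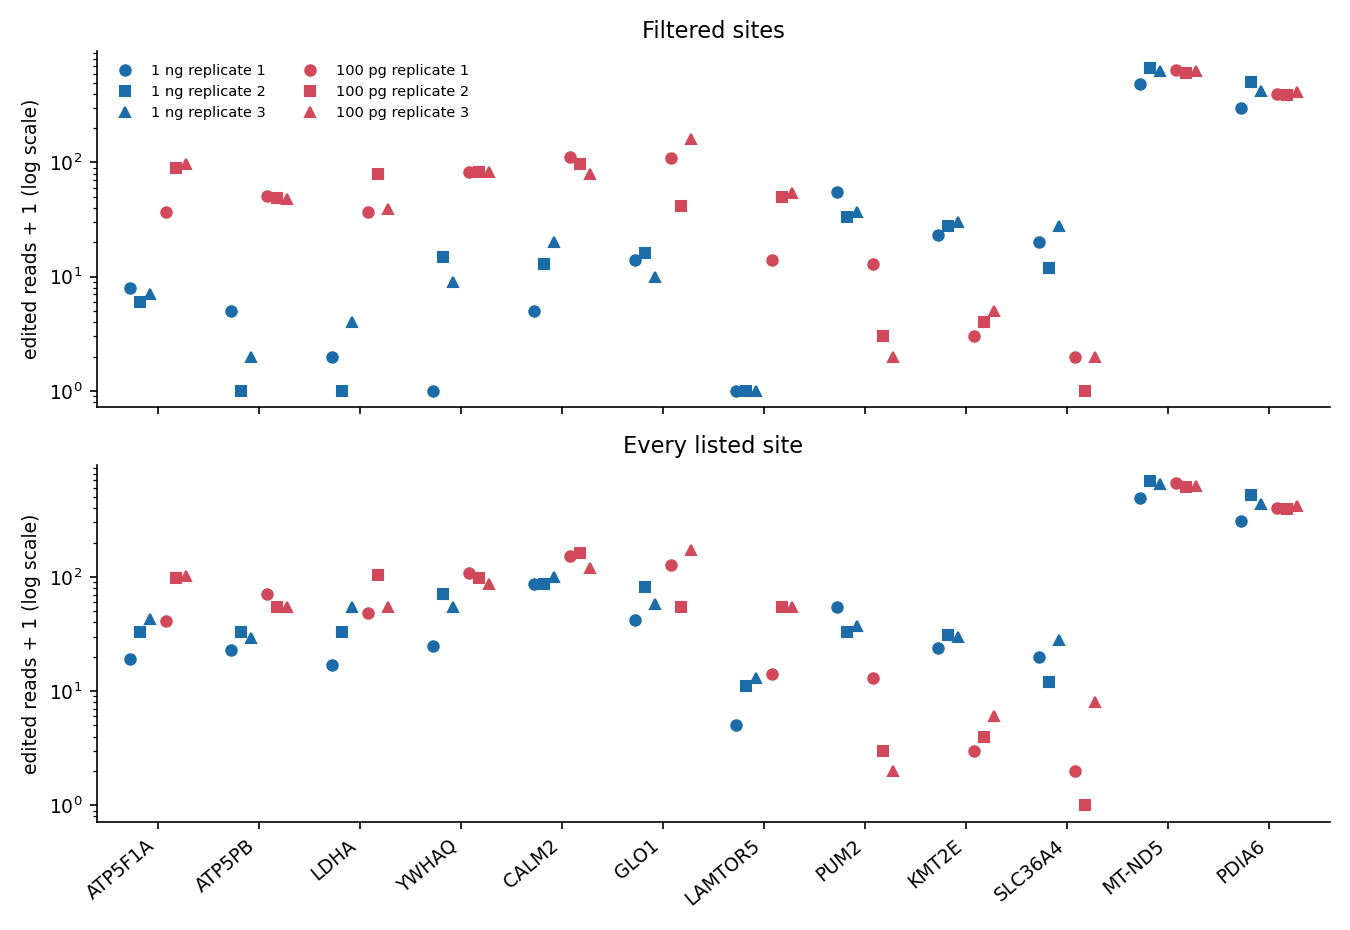
Edited reads plus 1 (log scale) of 12 genes in each of the 6 libraries, from filtered sites (upper panel) and from every listed site (lower panel), with 1 symbol per replicate. After the filter ATP5PB and LDHA sit at 0 to 4 edited reads at 1 ng and 36 to 79 at 100 pg. Before it their inputs are much closer. PUM2 and KMT2E keep nearly the same gap in both panels. SLC36A4 stays apart with a smaller gap, at 1, 0 and 1 in the 100 pg libraries after the filter and 1, 0 and 7 before it.

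The 8 genes with the most edited reads had similar counts at both inputs. MT-CYB and MT-ND5, mitochondrial genes of respiratory complexes III and I, had all their reads on 1 site. MT-CYB had 934, 1352 and 1314 at 1 ng and 1364, 1438 and 1361 at 100 pg, and MT-ND5 481, 674 and 631 and 644, 601 and 628. PDIA6 had 296, 502 and 420 and 397, 386 and 411, of which 293, 486 and 417 and 352, 361 and 378 were on the site shown above. NOP16 (a nucleolar protein of ribosome assembly) had 159, 228 and 214 and 236, 136 and 284, and RPS23 (a protein of the small ribosomal subunit) 143, 210 and 200 and 188, 132 and 185. TUBA1C, TRA2B (a splicing regulator) and the non-coding gene TSIX ranged from 83 to 241. Without strand, reads of TSIX cannot be told apart from those of its antisense partner. Their log2 fold changes lay between 0.15 ± 0.059 (MT-CYB) and 0.49 ± 0.24 (RPS23), all with a point estimate higher at 1 ng, except that those of MT-CYB and TRA2B were −0.04 when genes with few reads were also included.

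Among groups of genes, that of nuclear-encoded oxidative phosphorylation had the lowest median after the filter, but not with every listed site, where those of cytoskeleton, glycolysis and proteasome were lower. Of its 76 genes with a cluster 20 were tested, and 12 (60%) were higher at 100 pg without overlap and none at 1 ng, where all tested genes gave 9.83% and 9.11%. The median log2 fold change of the 20 was −2.32, against 0.01 over all tested genes, and with every listed site, where 33 could be tested, it was −0.54 against −0.07, with 5 and 1 not overlapping. The group held 0.695%, 0.533% and 0.483% of the gene-assigned edited reads at 1 ng and 1.60%, 1.64% and 1.58% at 100 pg. From every listed site this was 1.34%, 1.28% and 1.26% against 1.86%, 1.85% and 1.96%, so the inputs stayed apart. The shares of proteasome, translation factors, chaperones, cell cycle and 14-3-3 proteins were also higher at 100 pg without overlap in both settings. Those of nuclear long non-coding RNAs were higher at 1 ng in both. Of the 14 groups it alone had more genes with a cluster in every library of 100 pg, with 52 in each against 39, 44 and 39 at 1 ng. ATP5PB, a stalk subunit of the ATP synthase, had 4, 0 and 1 edited reads against 50, 48 and 47, and with every listed site 22, 32 and 28 against 70, 53 and 53. ATP5F1B, the beta subunit, had 5, 0 and 0 against 76, 42 and 28, and with every listed site 21, 29 and 27 against 89, 55 and 29. NDUFB6, of complex I, had 0, 0 and 1 against 25, 25 and 51, and with every listed site 3, 28 and 17 against 34, 26 and 59.

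Other groups of abundant housekeeping mRNAs had medians on the same side. In what follows, counts of genes that did not overlap are given after the filter, to be read against 9.83% of all tested genes higher at 100 pg and 9.11% at 1 ng, and then with every listed site, against 7.26% and 7.15%. Of 4 tested glycolysis genes 2 were higher at 100 pg without overlap (median −2.15), and with every listed site 1 of 5 (median −0.74). LDHA, lactate dehydrogenase A, had 1, 0 and 3 against 36, 79 and 38, and PGAM1, phosphoglycerate mutase, 2, 2 and 1 against 15, 15 and 70. Before the filter LDHA had 16, 32 and 53 against 47, 103 and 54. Of 22 chaperone genes 8 (36.4%) were higher at 100 pg and 1 at 1 ng (median −1.22), and with every listed site 6 and 1 of 26 (median −0.47). HSPA9, the mitochondrial HSP70, had 7, 8 and 9 against 79, 52 and 36, and PDIA3, a disulfide isomerase, 3, 3 and 0 against 28, 34 and 38. CANX, calnexin, had 16, 17 and 14 against 66, 55 and 74, and before the filter 31, 44 and 61 against 70, 60 and 88, where the inputs overlapped. Of 5 tested 14-3-3 genes 3 were higher at 100 pg (median −1.69), and with every listed site 2 of 5 (median −0.21). YWHAQ was at 0, 14 and 8 against 82, 82 and 81, and before the filter at 24, 70 and 53 against 108, 96 and 85.

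The machinery of protein synthesis and breakdown also had medians below 0. Of 21 proteasome genes 4 were higher at 100 pg and 1 at 1 ng (median −0.79), and with every listed site 2 and 1 of 24 (median −0.63). PSMA4, a core subunit, had 0, 2 and 0 against 46, 20 and 23, but before the filter 14, 20 and 22 against 47, 21 and 36, and the inputs overlapped. In contrast, PSME4, the proteasome activator PA200 with a transcript of 7250 nt, had 7, 18 and 15 against 0, 1 and 1. Of 21 translation factors 4 were higher at 100 pg and none at 1 ng (median −0.60), and with every listed site 4 and none of 28 (median −0.36). EIF4A3, the helicase of the exon junction complex, had 2, 0 and 6 against 32, 35 and 88, and EEF2, an elongation factor, 7, 3 and 2 against 28, 15 and 40. Of 8 tested ribosomal protein genes 1 was higher at each input (median −0.27), and with every listed site 3 at 100 pg and 1 at 1 ng of 12 (median −0.42). After the filter these were RPS23, given above, and RPL26L1, with 3, 4 and 0 against 21, 39 and 20. Reads of such genes with near-identical copies or pseudogenes cannot be placed with certainty.

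RNA-binding proteins and the cell cycle also had medians below 0. Fold changes were below 0 in 21 of 26 hnRNP and SR protein genes and in 9 of 15 cell cycle genes. The hnRNP and SR group held 1.33% ± 0.089 of gene-assigned edited reads at 1 ng and 1.88% ± 0.24 at 100 pg. These did not overlap, but did with every listed site (1.81% ± 0.064 and 1.98% ± 0.21). The cell cycle group stayed apart in both settings. Of 26 hnRNP and SR protein genes 3 (11.5%, near the share of all genes) were higher at 100 pg and 1 at 1 ng (median −0.42), and with every listed site 1 and 1 of 28 (median −0.09). HNRNPH3, a splicing factor, had 16, 21 and 10 against 0, 0 and 7, and HNRNPC 13, 34 and 14 against 136, 55 and 25, which overlapped as counts. Of 15 cell cycle genes 3 were higher at 100 pg and 1 at 1 ng (median −0.34), and with every listed site 3 and 1 of 19 (median −0.30). The tubulin regulator STMN1 was at 6, 2 and 2 against 41, 45 and 32, and before the filter at 27, 55 and 53 against 52, 58 and 45, where the sign of its fold change was no longer the same. CDK4, a cyclin-dependent kinase of G1, had 2, 1 and 6 against 21, 17 and 27. Of 4 cytoskeleton genes 1 was higher at 100 pg (median −0.74), and with every listed site 1 of 5 (median −0.92), and no replication-dependent histone gene had enough reads. Of 10 tested genes that are known APOBEC1 targets elsewhere 2 were higher at 100 pg (median −0.48), and with every listed site 1 of 10 (median −0.22). B2M had 5, 8 and 0 against 74, 18 and 28, and before the filter 17, 53 and 38 against 86, 21 and 30, which overlapped. ATP6AP2, an accessory subunit of the proton pump, had 13, 18 and 16 against 69, 36 and 48.

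Long non-coding RNAs of nuclear genes had a median on the other side. Clusters were found in 12, 13 and 13 of these genes at 1 ng and in 9 in each library of 100 pg. Of 6 tested genes 2 were higher at 1 ng without overlap and none at 100 pg, both after the filter and with every listed site (medians 0.98 and 0.94). The fold change was above 0 in 4 of the 6 and below 0 in NORAD, with 1, 7 and 27 against 30, 27 and 0, and FTX, with 10, 11 and 8 against 30, 4 and 6, both named after their values were seen. OIP5-AS1 had 10, 14 and 20 edited reads on 6, 9 and 14 sites against 0, 0 and 3. JPX had 21, 18 and 18 on 16, 14 and 11 sites against 12, 1 and 9 on 2, 1 and 1. Of the 2 mitochondrial genes tested, MT-ND5 was higher at 1 ng without overlap, and the median was 0.23 (with every listed site 0.03 over 3 genes). The mitochondrially encoded genes held 3.58% ± 0.14 of the gene-assigned edited reads at 1 ng and 3.20% ± 0.086 at 100 pg (SD, n = 3), and the groups did not overlap. With every listed site these shares were 3.11% ± 0.053 and 3.04% ± 0.073, and the groups overlapped.

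The fold change also went with the length of the transcript. Among tested genes with a mature transcript under 1 kb the median log2 fold change of 1 ng against 100 pg was −0.55, and it was −0.53 at 1 to 2 kb, −0.07 at 2 to 4 kb, 0.20 at 4 to 8 kb and 0.40 from 8 kb on. From every listed site the medians were −0.44, −0.34, −0.12, 0.12 and 0.29. Under 1 kb, 17 of 54 genes (31.5%) were higher at 100 pg without overlap and none at 1 ng. From 8 kb on, 5 of 192 (2.60%) were higher at 100 pg and 30 (15.6%) at 1 ng. The median transcript was 4971 nt for the genes higher at 1 ng, 2496 nt for those higher at 100 pg and 3829 nt for all tested genes. Genes with a cluster in all 3 libraries of 100 pg and in none of 1 ng had a median of 1181 nt, and those of the reverse kind 3639 nt. Loss at either input was most frequent for short transcripts. Of the genes with a cluster in all 3 libraries of 1 ng, 11.2% under 1 kb had none at 100 pg, against 6.34%, 6.13% and 5.92% in the next classes and 4.44% from 8 kb on. Of the genes with a cluster in all 3 libraries of 100 pg, 19 of 136 (14%) under 1 kb had none at 1 ng, and 1.92%, 0.821%, 0.664% and 0.351% in the longer classes. Transcripts under 1 kb held 4.32%, 4.17% and 4.08% of the gene-assigned edited reads at 1 ng and 7.19%, 6.75% and 6.43% at 100 pg, and those from 8 kb on 11.5%, 12.3% and 11.8% and 9.39%, 9.60% and 9.24%. A length was known for 98.6% of the tested genes. Length and gene group overlap (LAMTOR5 has 620 nt, UBE2C 777 nt, PUM2 6309 nt and KMT2E 7782 nt), and their separate parts were not tested.

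**Figure D5:**
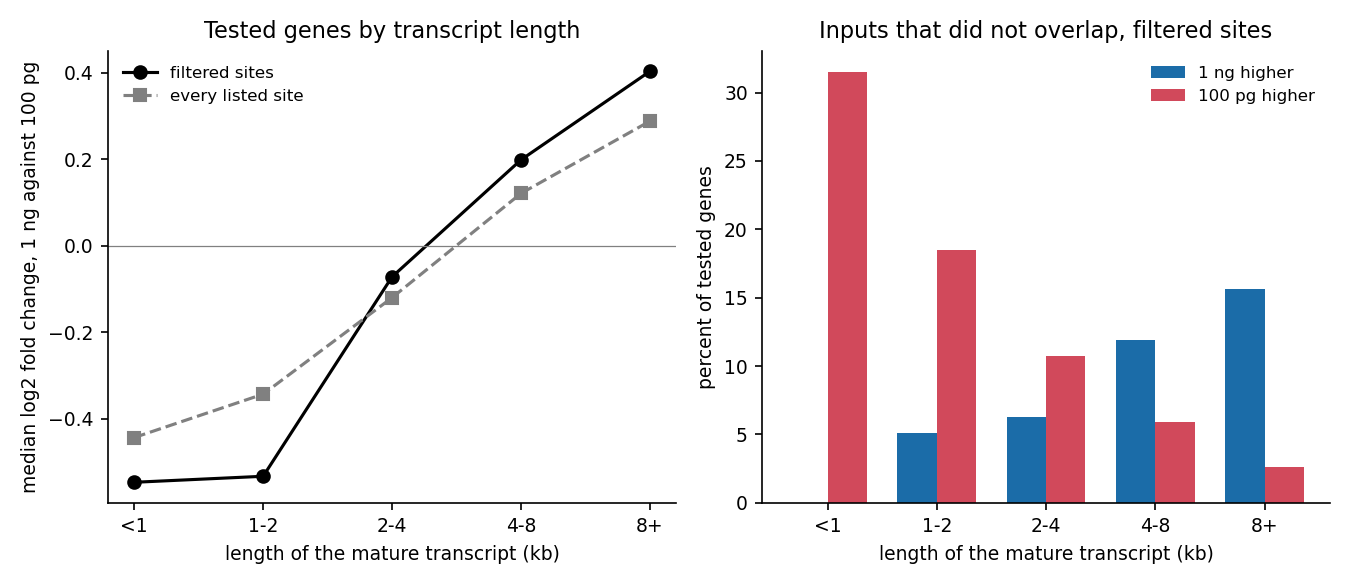
Tested genes by the length of the mature transcript: the median log2 fold change of 1 ng against 100 pg from filtered sites and from every listed site (one panel), and the percent of genes whose inputs did not overlap, higher at 1 ng or at 100 pg (other panel, bars from 0). The median goes from −0.55 under 1 kb to 0.40 from 8 kb on, and the bars for 100 pg go from 31.5% to 2.60%.

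The study's confident lists were deposited in a plain and a cleaned form for each input. By the methods, confident clusters are intersected over the 3 replicates and rid of buffer-only clusters, and the sources used here do not say which form that describes. The plain lists held 762 clusters in 523 genes at 1 ng and 242 clusters in 175 genes at 100 pg. This was 2.65% and 1.51% of the mean number of clusters per library. Of the 1 ng clusters 16.3% overlapped one of the 100 pg list by at least 1 nt, and of the 100 pg clusters 50.8% overlapped one of the 1 ng list. The lists had 89 genes in common, 17.0% of the first and 50.9% of the second. The cleaned lists held 637 and 199 clusters, with 7.85% and 25.1% overlapping. The median depth of the listed clusters was 103 reads at 1 ng and 256 at 100 pg. Of the gene groups, hnRNP and SR proteins had the most members in both, 10 at 1 ng and 6 at 100 pg. These stand beside 38 genes of the group with a cluster in any library. Nuclear oxidative phosphorylation had 4 and 2, beside 76 such genes. Over all genes the plain lists held 523 and 175, beside 12296 with a cluster. The groups differ in size, so the member counts are no ranking by share.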

How the data were processed

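C-to-U edits were measured by RNA sequencing (single-end reads of 100 nt) in 3 libraries of 1 ng and 3 of 100 pg total RNA; the groups come from the sample titles. The authors trimmed reads with cutadapt, removed repeats, aligned with STAR 2.4.0 to hg38 (the labels also name STAR 2.5.2), called sites with SAILOR after removing known dbSNP positions, and called clusters with FLARE at a false discovery rate of 0.1, merged within 15 nt, with genes of GENCODE 29. The deposited site files give a confidence score and the counts of edited and covering reads. The deposited cluster files give a score, counts of edited bases and reads, edit fractions and the mean depth as a signal of coverage, and the deposited confident lists give a depth signal and a cluster label.

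As in the study's methods, the analysis used sites scored above 0.5 whose fraction was under 0.8, and a site took its gene from the cluster label where that named 1 gene. Edited reads per gene were tested with edgeR 4.0.16 (R 4.3.3; TMM factors, filterByExpr, quasi-likelihood test, Benjamini-Hochberg adjusted p under 0.05), and values per library with an exact two-sided permutation test, whose smallest p is 0.1. The gene test was tried on simulated data, where it recovered 1.52% of 2-fold, 15.2% of 4-fold and 83.8% of 16-fold changes. A count of 0 genes called therefore does not show that no gene differed. Regions, transcript lengths and sequences came from GENCODE 44 and hg38 (Python 3.11.15, pysam 0.24.0). Alternatives were DESeq2 1.42.0, other scaling and filters, every listed site, a cover of at least 20, a stricter cluster score and leaving out each library. Reads carry no molecular identifiers and the totals of sequenced reads are not in the files used here, so depth is given as edited and covering reads at sites. No column of a whole-series table was left unused (0).

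The members, the 14 gene lists and the rules were chosen with earlier results of these data known. Named genes were the 8 with the most edited reads, the 2 to 4 of each list with the smallest p, and the 4 with the most edited reads detected in all 3 libraries of only 1 input; named sites followed the same pattern. The bounds of 10 edited reads, 20% and the length classes, the private sites and the genes of smallest p were chosen after values were seen. Replicate numbers showed no sign of pairing the samples: the deviations from the input means correlated at −0.02, 0.02 and −0.02 between libraries of the same number. Between libraries of different numbers the correlations were −0.039 to 0.057. With few edited reads per gene and 3 libraries per input, this cannot exclude a pairing.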

Additional observations from a re-analysis of the deposited data

How the results depend on the processing

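The count of genes called depended on the tool and filter: 0 as reported, 85 with the DESeq2 Wald test, 34 of 12296 with no filter on low counts, 1 with genes from the GENCODE annotation, 7 of 88 with sites per gene in place of edited reads, and 0 with DESeq2 size factors, with every listed site or with an offset of covering reads. Leaving out 1 library gave 0 to 9, with 9 without replicate 1 of 100 pg and 1 without replicate 3 of 100 pg. The offset, the missing filter and the replicate block moved the median log2 fold change of all genes from 0.01 to 0.20, 0.21 and 0.26. With the replicate number as a block 28 genes (1.68%) were called (3 higher at 1 ng, 25 at 100 pg). The exact p of the library measures, which cannot go below 0.25 in that pairing, was 0.25 or 0.5, with the ratio of sites unchanged at 1.54. Whether the numbers pair the samples is not known, so it is not settled which of the 2 settings applies. The ratio of 1 ng to 100 pg in median cover was 0.831 as reported and 1.02 with every listed site, and that of the share of clusters in exons was 1.03 as reported and 0.829 with a cluster score of at least 0.99 (65.4% and 78.9%). The same score, chosen after seeing the data in place of a planned adjusted p that the cluster files do not hold and that was not run, gave 209 and 96 genes lost at one input in place of 314 and 46. Of single genes, the log2 fold change of MT-CYB was −0.040 and that of TRA2B −0.040 without the filter on low counts, that of STMN1 0.0054 with every listed site, that of NOP16 −0.026 to 0.52 and that of TRA2B −0.011 to 0.36 when a library was left out. Causes of these differences were not tested. Leave-one-out ratios of 1 ng to 100 pg were 1.45 to 1.67 for sites, 0.790 to 0.922 for edited reads, 1.70 to 1.95 for clusters, 1.21 to 1.30 for genes, 1.18 to 1.20 for the share after A or U and 1.20 to 1.26 for shared genes. In all, 113 of the other alternative values of the main measures and 516 of those of single genes kept their direction and side of the threshold. A site needs an edited read to be listed, so no depth bound can be given for positions without one.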
